A study of Mus musculus with 6 samples.

Results

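Lysosomal genes were examined in 6 RNA-Seq libraries of bone marrow-derived macrophages (BMDM). The PP2Ac KO group comprised 3 libraries of LysM-cre PP2Ac fl/fl genotype and the PP2Ac WT group 3 libraries of WT genotype, all on C57BL/6. The 49 genes were chosen by name, as rows of the deposited count table whose symbol is that of a cathepsin, another lysosomal hydrolase, a lysosomal membrane protein, a subunit of the vacuolar proton pump (V-ATPase) or a MiT/TFE transcription factor. They are 49 of the 55453 gene symbols in the table and of the 13680 genes with enough counts to be tested, and all 49 were tested. In the KO mice, cre is made from the Lyz2 promoter and removes the floxed first exon of Ppp2ca, which encodes the catalytic subunit of the phosphatase PP2A. The macrophages were grown from marrow with M-CSF or with medium conditioned by L929 fibroblasts. The study's text describes treatment of both genotypes with the STING agonist cGAMP before RNA-Seq, but the labels name no treatment, and without an untreated group the comparison is of genotypes only. The WT mice carried neither the floxed alleles nor cre, so that an effect of cre itself cannot be told apart from that of the deletion. The labels do not say that the 3 libraries of a genotype came from separate mice, so p-values measure the spread between these libraries only.

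Lysosomes are acid organelles in which hydrolases break down proteins, sugars and lipids delivered by phagocytosis, endocytosis and autophagy. The V-ATPase, a rotary pump with a cytosolic sector V1 that splits ATP and a membrane sector V0 that moves protons, keeps the lumen acid, and the cathepsins are proteases that work there. The transcription factors TFEB, TFE3 and MITF bind E-box motifs (CACGTG and close variants) in the promoters of many of these genes, and their entry into the nucleus is set by phosphorylation, which a table of RNA counts does not show. Macrophages hold many lysosomes and express most of these genes at a high level.

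Library totals ran from 35257156 to 47390899 counts, and values are given as CPM, the read count of a gene relative to the size of its library, with library sizes scaled by the TMM method, which sets each library's scale from the bulk of its genes. Ppp2ca, the targeted gene, was measured at 1.01 ± 0.0988 CPM in KO and 206 ± 8.51 CPM in WT (SD, n = 3; log2 fold change -7.67, standard error 0.097, adjusted p = 3.17e-10 from edgeR, here and below from its quasi-likelihood fit across all genes, Benjamini-Hochberg adjusted), as the labels have it. All 8 macrophage markers were detected, and 3 of them (Fcgr1, Mertk and Ptprc) were higher in KO, with summed levels of 8245 to 8487 CPM in KO and 6569 to 7469 CPM in WT. With the replicate number added to the fit as a block, Csf1r, Cd14 and Lyz2 were also called higher (adjusted p = 0.0028, 0.00488 and 0.0118 from edgeR). Lyz2, whose promoter drives cre, was the lowest of the 8 per kb of exon, at 8.86 ± 1.13 CPM in KO and 7.30 ± 0.912 CPM in WT. Sharing of reads with other genes was not examined for the markers, so this count does not settle how strongly Lyz2 is expressed. The 4 fibroblast markers (Col1a1, Col1a2, Col3a1 and Dcn) were all lower in KO, with summed levels of 22.7 to 33.4 CPM in KO and 74.9 to 118 CPM in WT. In bulk RNA, fewer cells of a type and less RNA per cell cannot be told apart. The summed markers of dendritic cells, neutrophils, T and NK cells, B cells, and mast cells and basophils were at most 2.66 CPM per list in every library. A level of 3 counts, taken as the floor for counting error, was 0.0604 to 0.0909 CPM.

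Of the 49 lysosomal genes, 12 rose and 7 fell in PP2Ac KO at an adjusted p under 0.05, and 30 were not called. Across all 13680 genes tested, 18.1% were called higher, 19% lower and 37.1% in either direction, against 38.8% of the lysosomal genes in either direction, so that the share called lay near the background. The changes were mostly small. A single gene, Ctsc, was called higher and over 1.5-fold (background 8.74%), and 4 were called lower and over 1.5-fold (Ctsk, Atp6v0d2, Tfeb and Ctsl; background 8.44%). The median absolute log2 fold change was 0.16 over the 49 genes and 0.23 over all genes tested, and the median log2 fold change was 0.055 and -0.024. The libraries did not overlap for 21 genes with all KO above all WT (background 24%) and for 8 with all KO below all WT (background 26.8%). In the plot of log2 fold changes, Ctsc lies furthest to the right, and Ctsk, Atp6v0d2, Tfeb and Ctsl lie furthest to the left.

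**Figure D1:**
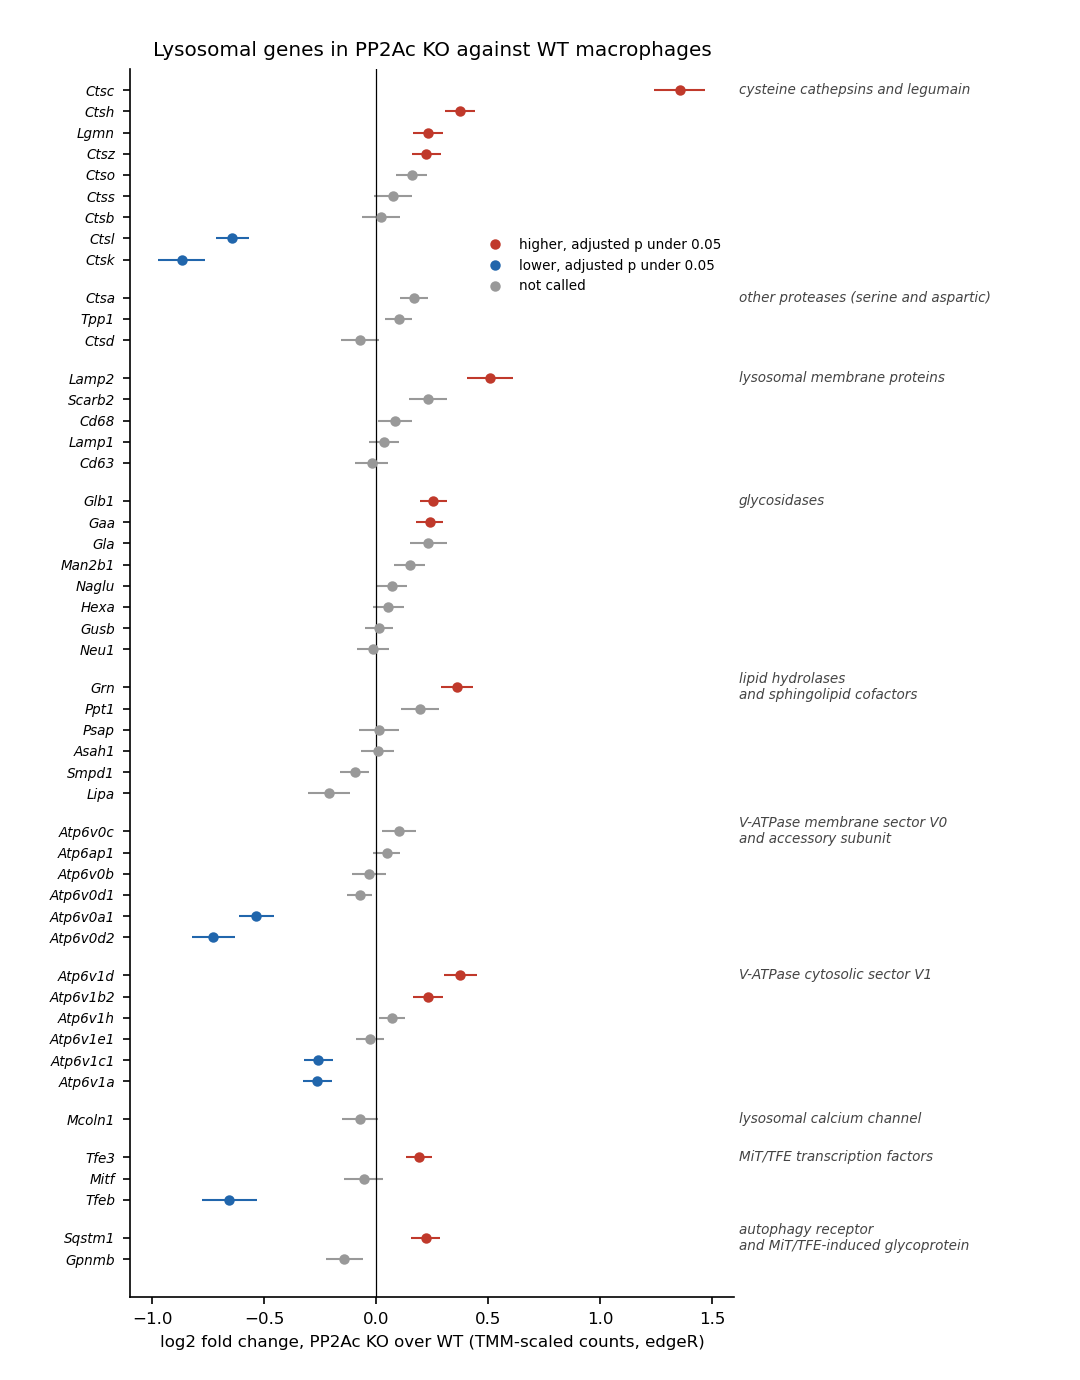
Log2 fold change of each of the 49 lysosomal genes in PP2Ac KO over PP2Ac WT BMDM (x axis), grouped by role (right), with the standard error from edgeR as a horizontal bar (3 libraries per genotype). Red and blue points are the 12 genes called higher and the 7 called lower; Ctsc stands apart at 1.36, and the lowest are Ctsk at -0.87 and Atp6v0d2 at -0.73. Tfe3 is below 0 with total-count scaling.

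The scale set the direction of the group as a whole. Before TMM scaling the 49 genes took 7.54% to 8.18% of the reads counted in KO libraries and 8.44% to 9.47% in WT libraries, and the genotypes did not overlap. After TMM scaling their summed level was 82860.4 to 87320.2 CPM in KO and 80497 to 86393 CPM in WT, and the genotypes overlapped. TMM factors were 0.910 to 0.937 in KO and 1.05 to 1.10 in WT. Scaling by library totals alone moved the median of all genes on the log2 scale from -0.024 to -0.24 and that of the lysosomal genes from 0.055 to -0.16, and the calls to 2 higher and 22 lower. With that scaling 11% of all genes were called higher and 44.8% lower, against 44.9% lower of the 49, so that the lower share lay at the background. The difference between both medians was 0.079 with either scale. With upper-quartile scaling, 7 were higher and 8 lower (background 15.3% and 24.5%), and over all genes 38.4% of the calls were higher in place of 48.7%. Of the 19 called genes, 8 kept their call in all 14 alternatives run, Ctsc and Lamp2 among the higher and Ctsk, Ctsl, Atp6v0a1, Atp6v0d2, Atp6v1c1 and Tfeb among the lower. Total-count scaling, 1 of the 14, was added after seeing the data and moved genes down, so it works against higher calls and for lower ones. Ctsh, Glb1, Grn and Atp6v1d, all higher, lost their call there alone. The number of calls kept thus does not compare both directions fairly. Without KO replicate 2 the calls were 6 higher and 6 lower (background 14.2% and 13.3%), and without WT replicate 2 they were 7 higher and 7 lower (background 14% and 13.3%). Blocking on the replicate number gave 18 higher (background 24.4%) and 9 lower (background 26.4%). The plot of calls by setting shows the lower calls between 6 and 9 apart from total-count scaling, and the higher calls varying from 2 to 18. In GRCm38 (GENCODE M21) the annotation places Ctsc at chr7:88278085-88310888 on the forward strand, Ctsk at chr3:95499256-95509362 on the forward strand, Ctsl at chr13:64359337-64370890 on the reverse strand and Lamp2 at chrX:38401357-38456454 on the reverse strand. It places Atp6v0a1 at chr11:101009452-101063719 on the forward strand, Atp6v0d2 at chr4:19876841-19922605 on the reverse strand, Atp6v1c1 at chr15:38661933-38692446 on the forward strand and Tfeb at chr17:47737030-47792419 on the forward strand. All 8 are annotated as protein-coding.

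**Figure D2:**
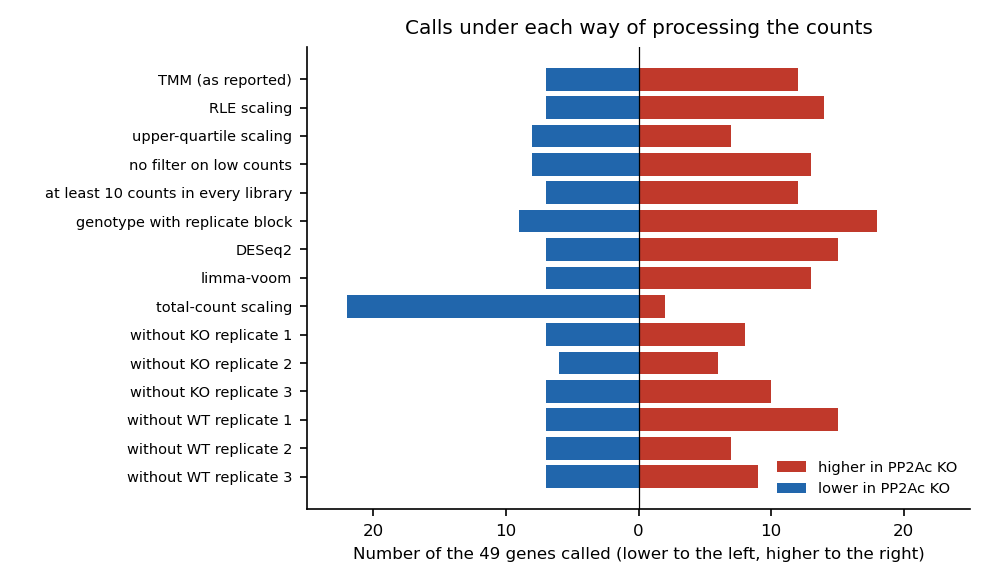
Number of the 49 lysosomal genes called higher (red, to the right) or lower (blue, to the left) in PP2Ac KO at an adjusted p under 0.05, under TMM as reported and under each of 14 alternatives (y axis). Higher calls run from 2 (total-count scaling) to 18 (replicate block) and lower calls from 6 (without KO replicate 2) to 22 (total-count scaling).

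Among the proteases, the cysteine cathepsins moved in both directions: of 8 of them and legumain, 4 rose (Ctsc, Ctsh, Ctsz and Lgmn) and 2 fell (Ctsk and Ctsl), beside a background of 18.1% and 19%. Ctsc encodes cathepsin C, the dipeptidyl peptidase that activates serine proteases of granules. It had 778, 709.6 and 723 CPM in the KO libraries and 339.7, 278 and 246 CPM in the WT libraries, without overlap. Its level was 2.56-fold that of WT (log2 fold change 1.36, standard error 0.11, adjusted p = 7.32e-05 from edgeR), and its log2 fold change ran from 1.14 to 1.49 over the alternatives. Ctsh, an aminopeptidase, had 329.8, 354 and 348 CPM in KO and 269.8, 274 and 251 CPM in WT (log2 fold change 0.38, standard error 0.067, adjusted p = 0.00217 from edgeR). The groups did not overlap, and the call was lost with total-count scaling, at 0.16 (adjusted p = 0.0696 from edgeR).

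Lgmn and Ctsz showed smaller differences. Lgmn, the asparaginyl endopeptidase that cleaves several cathepsins to their mature forms, had 1911, 1945 and 1973 CPM in KO and 1647, 1689 and 1626 CPM in WT (log2 fold change 0.23, standard error 0.065, adjusted p = 0.0199 from edgeR). Ctsz, a carboxypeptidase, had 1324, 1352 and 1302 CPM in KO and 1129.8, 1162 and 1114 CPM in WT (log2 fold change 0.22, standard error 0.064, adjusted p = 0.0223 from edgeR). In both genes every KO library lay above every WT library. Lgmn was not called without KO replicate 2, KO replicate 3, WT replicate 2 or WT replicate 3 (adjusted p = 0.0739, 0.0636, 0.0565 and 0.0516 from edgeR). Ctsz was not called without KO replicate 1, KO replicate 2, WT replicate 2 or WT replicate 3 (adjusted p = 0.0607, 0.0949, 0.0589 and 0.0594 from edgeR). Neither was called with upper-quartile scaling (adjusted p = 0.074 for Lgmn and 0.0851 for Ctsz from edgeR) or with total-count scaling, where Lgmn was at 0.017 and Ctsz at 0.0082.

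Ctsl and Ctsk went the other way. Ctsl, a broad endopeptidase that also trims the invariant chain in some cells, had 819.8, 905 and 913 CPM in KO and 1309, 1399.8 and 1409 CPM in WT, so that the highest KO library was below the lowest WT library. WT was 1.56-fold above KO (log2 fold change -0.64, standard error 0.074, adjusted p = 2.66e-04 from edgeR). Ctsk, the collagen-degrading cathepsin best known from osteoclasts, had 17.6, 19.4 and 18.3 CPM in KO and 36.6, 36.1 and 28.0 CPM in WT, where WT replicate 3 was lower than the other two. WT was 1.82-fold above KO (log2 fold change -0.87, standard error 0.10, adjusted p = 3.24e-04 from edgeR). Fibroblasts make Ctsk too, and the fibroblast markers, of which 4 of 4 were lower in KO, had no overlap between the genotypes (summed level 22.7 to 33.4 CPM against 74.9 to 118 CPM, none of the 4 at 0); their part in the Ctsk difference was not tested. Of 6 osteoclast markers, Calcr was at 0 in all libraries, Oscar at or under 0.0716 CPM, Acp5 higher in KO, Dcstamp lower, and Ocstamp and Nfatc1 not called (Ocstamp called higher with the block, adjusted p = 0.0209 from edgeR), with summed levels of 64.6 to 68.9 CPM in KO and 62.2 to 66.0 CPM in WT.

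Exons of Ctsl overlap those of Gm47123 on the opposite strand over 26.8% of their bases, and the strand setting of the counting is not given in the sources used here, so its level carries that uncertainty. Ctsb (12.8%), Ctsa (17.4%), Hexa (12.8%), Sqstm1 (17.3%) and Atp6v0b (11.8%) also share over 10% of exon bases with a gene on the opposite strand. Ctsd shares 34.4% with Gm49369 on the same strand. Of the 49-gene list, Ctsd (32.4%), Cd63 (11%, with Cd63-ps) and Atp6v0c (10.8%, with Atp6v0c-ps2) have over 10% of their 50-base windows in transcripts of another gene, so reads could have been divided there.

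The most abundant lysosomal proteases did not pass the test. On a scale of CPM per kb of exon, on which genes can be compared with each other, the 3 highest of all 49 genes were Psap, Ctss and Ctsb. Ctss, the elastolytic cathepsin that trims the invariant chain in antigen-presenting cells, had 6693, 6933 and 6434 CPM in KO and 6717, 6600.4 and 5730.3 CPM in WT (4924 ± 184 and 4675 ± 397 CPM per kb, SD, n = 3), and the groups overlapped (log2 fold change 0.075, standard error 0.085, adjusted p = 0.529 from edgeR). Ctsb had 18011, 18617 and 19484 CPM in KO and 17262, 18405 and 19578 CPM in WT (3091 ± 122 and 3043 ± 191 CPM per kb), again with overlap (log2 fold change 0.022, standard error 0.083, adjusted p = 0.854 from edgeR). On the same scale Ctsl was at 135 ± 7.95 in KO and 212 ± 8.49 in WT, and Ctsk at 12.2 ± 0.605 and 22.2 ± 3.19, so that the order Ctss, Ctsl, Ctsk held in both genotypes. Ctsd, the main aspartic protease, had a log2 fold change of -0.071, Tpp1 (tripeptidyl peptidase) 0.10, Ctsa 0.17 and Ctso 0.16, none of them called. When the replicate number was added as a block, Ctsa (adjusted p = 0.00438 from edgeR) and Ctso (adjusted p = 0.0075 from edgeR) were called higher.

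Because the ratio of a pair of genes within a library does not depend on its scale, 11 such ratios were computed. All but 3 (Atp6v0d2 to Atp6v0d1, and Ctsl and Ctsk to Ctss) are of pairs chosen after the values were seen, and those are given without a test. The log2 ratio of Ctsc to Ctsl was -0.076, -0.35 and -0.34 in the KO libraries and -1.95, -2.33 and -2.52 in the WT libraries, a difference of 2.01. Since both genes are measured in the same libraries, this difference holds under every scaling. For Ctsl to Ctss the log2 ratio differed by -0.72 and that of Ctsk to Ctss by -0.93. In the 3 computed ratios not chosen after the values were seen, every KO library lay below every WT library. For the other pairs a lack of overlap can follow from the choice itself and is not counted as a result. Each of the 3 had an exact two-sided permutation p = 0.1 (0.1 after Benjamini-Hochberg adjustment over the 3), the smallest that 3 libraries against 3 allow. The ratio of Ctsk to Ctsl, from the same family, was not computed. The 3 ratios thus do not cover every pair of these paralogs, and the lack of overlap is not shown for that pair.

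**Figure D3:**
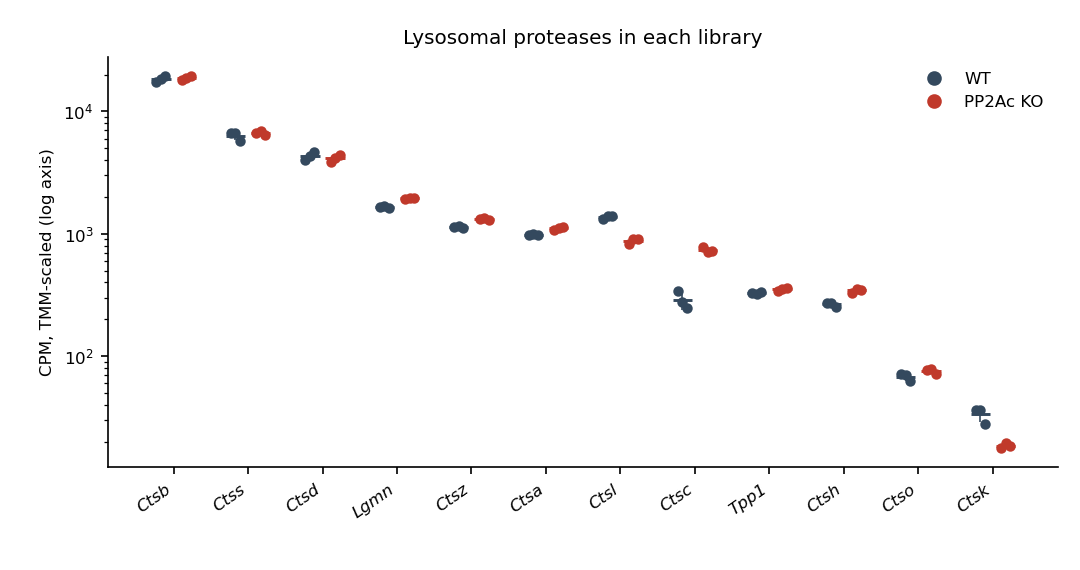
Level of 12 lysosomal proteases in each library (y axis, TMM-scaled CPM on a log axis; points are libraries, horizontal lines the means and vertical lines the SD of 3 libraries). Ctsc lies higher in PP2Ac KO (red) than in WT (dark), Ctsl and Ctsk lie lower, and Ctsb, Ctss and Ctsd overlap.

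Of the 5 lysosomal membrane proteins, Lamp2 alone was called (20%, against 37.1% of all genes in either direction). Lamp2, which is needed for the fusion of autophagosomes with lysosomes and in a splice form for chaperone-mediated autophagy, had 1352, 1305 and 1199.9 CPM in KO and 1025, 906 and 781 CPM in WT (log2 fold change 0.51, standard error 0.10, adjusted p = 0.00429 from edgeR). The groups did not overlap, and KO was 1.42-fold above WT. Its paralog Lamp1, a major glycoprotein of the lysosomal membrane, had 2532, 2562 and 2528 CPM in KO and 2503, 2508 and 2427 CPM in WT (log2 fold change 0.035, standard error 0.065, adjusted p = 0.708 from edgeR). Relative to Lamp1, Lamp2 had log2 ratios of -0.91, -0.97 and -1.08 in KO and -1.29, -1.47 and -1.64 in WT, a difference of 0.48. Cd63 and Cd68, the tetraspanin and the macrophage marker of late endosomes, had log2 fold changes of -0.020 and 0.084. Scarb2, the receptor that carries beta-glucocerebrosidase to lysosomes, was at 0.23 (adjusted p = 0.0599 from edgeR, and 0.00166, a call, with the replicate number as a block).

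Of 8 glycosidases, 2 were higher (25%, background 18.1%) and none was lower (background 19%). With the block, 4 were higher (background 24.4%). Glb1, the beta-galactosidase of ganglioside and keratan sulfate breakdown, had 104, 109 and 114 CPM in KO and 92.6, 91.1 and 89.8 CPM in WT (log2 fold change 0.26, standard error 0.059, adjusted p = 0.0083 from edgeR). Gaa, the alpha-glucosidase that degrades glycogen, had 179.6, 177 and 170.3 CPM in KO and 148, 152 and 147 CPM in WT (log2 fold change 0.24, standard error 0.059, adjusted p = 0.0111 from edgeR), and was not called without KO replicate 2 (adjusted p = 0.0509 from edgeR). In both genes all KO libraries were above all WT libraries, and with total-count scaling Glb1 was at 0.041 and Gaa at 0.023, neither called. The other 6 had log2 fold changes of 0.23 (Gla, alpha-galactosidase), 0.15 (Man2b1, alpha-mannosidase), 0.072 (Naglu), 0.055 (Hexa), 0.013 (Gusb, beta-glucuronidase) and -0.014 (Neu1, sialidase). Gla and Man2b1 were called higher with the replicate block (adjusted p = 0.00676 and 0.0081 from edgeR).

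Of the 6 lipid hydrolases and cofactors, Grn was the one called (16.7%, against 37.1% of all genes in either direction). Grn encodes progranulin, a secreted and lysosomal glycoprotein whose fragments assist lysosomal enzymes, and had 3753, 3718 and 3557 CPM in KO and 2917, 2931 and 2734 CPM in WT without overlap (log2 fold change 0.36, standard error 0.071, adjusted p = 0.00351 from edgeR). The call was lost with total-count scaling, at 0.15 (adjusted p = 0.101 from edgeR). Psap, the precursor of the saposins and the gene with the highest level per kb (5966 ± 253 CPM per kb in KO and 5912 ± 552 in WT, SD, n = 3), had 15927, 16013 and 17168 CPM in KO and 14879.9, 15926 and 17864 CPM in WT, and the groups overlapped (log2 fold change 0.013, standard error 0.091, adjusted p = 0.924 from edgeR). Lipa, the acid lipase of cholesteryl esters, was at -0.21 (adjusted p = 0.106 from edgeR, and 0.00262, a call, with the block). Ppt1, a depalmitoylating thioesterase, was at 0.20 (adjusted p = 0.0979 from edgeR, and 0.0113, a call, with the block). Smpd1 (acid sphingomyelinase) was at -0.095 and Asah1 (acid ceramidase) at 0.0067, and neither was called.

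In the V-ATPase, 2 of the 12 subunit genes were higher and 4 lower, with 0 higher and 2 lower of 6 in the V0 list and 2 higher and 2 lower of 6 in V1. Over all genes 18.1% were higher and 19% lower. In the membrane sector, Atp6v0a1 encodes the a1 form of the subunit that lines the proton path. It had 113, 113 and 126 CPM in KO and 160.2, 165 and 185 CPM in WT, without overlap (log2 fold change -0.53, standard error 0.078, adjusted p = 8.00e-04 from edgeR). Atp6v0d2, the d2 form of the subunit that joins the rotor to the membrane ring, known from osteoclasts and macrophages, had 149, 168 and 191 CPM in KO and 270.0, 271 and 299 CPM in WT, again without overlap (log2 fold change -0.73, standard error 0.095, adjusted p = 4.72e-04 from edgeR). Its paralog Atp6v0d1, the d1 form found in most cells, had 134, 133 and 138 CPM in KO and 139.6, 142 and 143 CPM in WT (log2 fold change -0.073, standard error 0.057, adjusted p = 0.347 from edgeR), and was called lower with total-count scaling, at -0.29. Per kb of exon, d2 was at 103 ± 6.10 and d1 at 79.1 ± 1.08 CPM per kb in WT (SD, n = 3), and at 62.3 ± 7.73 and 75.2 ± 1.35 in KO, so that their order on this scale was reversed between the genotypes. In counts not divided by length, d2 lay above d1 in every library, so the order depends on the exon length used. The log2 ratio of Atp6v0d2 to Atp6v0d1 counts was 0.15, 0.34 and 0.47 in KO and 0.95, 0.93 and 1.06 in WT. Atp6v0c and Atp6v0b, which form the proton-carrying ring, and the accessory subunit gene Atp6ap1 had log2 fold changes of 0.10, -0.032 and 0.047, none called.

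In the cytosolic sector, the genes of both nucleotide-binding subunits went opposite ways. Atp6v1a, the catalytic A subunit, had 597, 583 and 608 CPM in KO and 734, 685 and 726 CPM in WT (log2 fold change -0.26, standard error 0.065, adjusted p = 0.0111 from edgeR), and was not called without KO replicate 2 (adjusted p = 0.0591 from edgeR). Atp6v1b2, the B subunit, had 589.6, 578 and 556 CPM in KO and 509.7, 481 and 476 CPM in WT (log2 fold change 0.23, standard error 0.065, adjusted p = 0.0203 from edgeR). It was not called without KO replicate 1, KO replicate 2, WT replicate 2 or WT replicate 3 (adjusted p = 0.0662, 0.0743, 0.083 and 0.0604 from edgeR) or with upper-quartile scaling (adjusted p = 0.0585), and with total-count scaling it was at 0.016. Atp6v1b2 over Atp6v1a, a log2 ratio that no scaling moves, was -0.018, -0.013 and -0.13 in KO and -0.53, -0.51 and -0.61 in WT.

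A rotor gene was higher and the gene of the C subunit lower. Atp6v1d, the D subunit of the central rotor, had 156, 158 and 149 CPM in KO and 130.3, 114 and 112 CPM in WT (log2 fold change 0.38, standard error 0.074, adjusted p = 0.00371 from edgeR), and lost its call with total-count scaling, at 0.16 (adjusted p = 0.0619 from edgeR). Atp6v1c1, the C subunit that takes part in the reversible joining of the sectors, had 162, 176 and 178 CPM in KO and 201, 206 and 209.7 CPM in WT (log2 fold change -0.26, standard error 0.064, adjusted p = 0.0116 from edgeR). In both genes the genotypes did not overlap. Atp6v1e1 and Atp6v1h, of the outer stalk and the regulatory H subunit, were at -0.027 and 0.071 and not called.

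The other forms of the a subunit are not among the 49 genes and were compared after the values were seen. Atp6v0a2 (a2) had 187, 175 and 164 CPM in KO and 137, 120.4 and 111 CPM in WT (log2 fold change 0.51, standard error 0.089, adjusted p = 0.00194 from edgeR). Tcirg1 (a3), the form of osteoclasts and of lysosomes of immune cells, had 1011, 982 and 964 CPM in KO and 759.7, 779.6 and 834 CPM in WT (log2 fold change 0.32, standard error 0.068, adjusted p = 0.00577 from edgeR), a call lost with total-count scaling (adjusted p = 0.262 from edgeR). Both were higher in KO without overlap, while Atp6v0a1 was lower. The log2 ratio of Atp6v0a2 to Atp6v0a1 was 0.73, 0.62 and 0.38 in KO and -0.23, -0.46 and -0.74 in WT. For Tcirg1 over Atp6v0a1 it was 3.17, 3.12 and 2.93 in KO and 2.25, 2.24 and 2.18 in WT. The plot of paralogs shows these shifts. The other 6 of the 8 further V-ATPase genes tested were not called, though with the block Atp6v1f and Atp6v1g1 were called higher (adjusted p = 0.00923 and 0.0457 from edgeR).

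**Figure D4:**
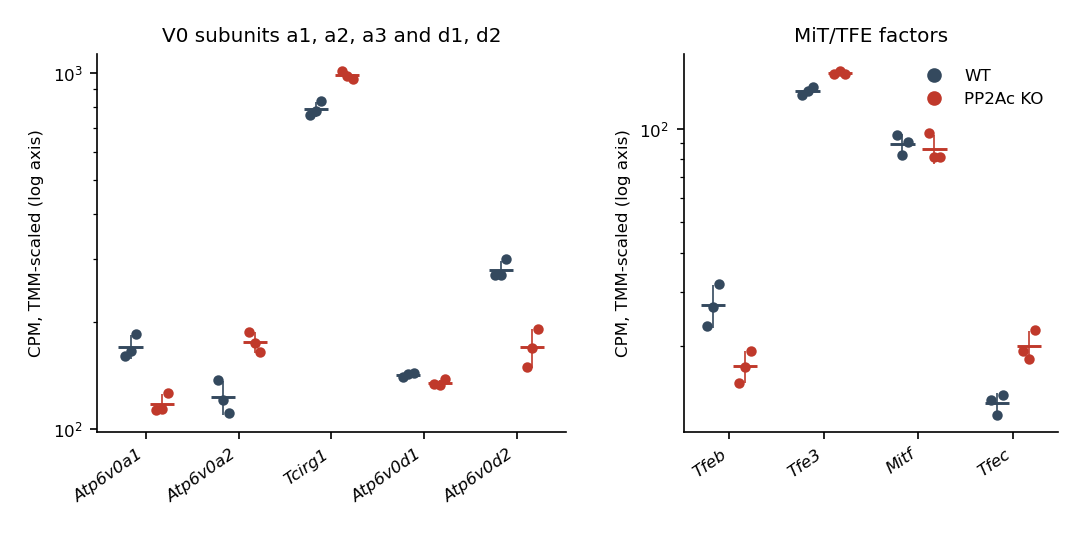
Level of the a and d subunit paralogs of the V-ATPase (left) and of the MiT/TFE factor genes (right) in each library (y axes, TMM-scaled CPM on log axes that do not start at 0; points are libraries, horizontal lines means and vertical lines SD, 3 libraries per genotype). Atp6v0a1, Atp6v0d2 and Tfeb are lower in PP2Ac KO (red) than in WT (dark), Atp6v0a2, Tcirg1 and Tfec are higher, Atp6v0d1 and Mitf are not called, and Tfe3 is higher here but slightly lower with total-count scaling.

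The transcription factor genes did not move together. Tfeb had 15.3, 17.1 and 19.4 CPM in KO and 23.2, 26.7 and 31.8 CPM in WT, without overlap, and WT was 1.57-fold above KO (log2 fold change -0.65, standard error 0.12, adjusted p = 0.00304 from edgeR). Over the alternatives its log2 fold change ran from -0.87 to -0.53. Tfe3 had 149, 153 and 149.8 CPM in KO and 128, 132 and 136 CPM in WT, higher in KO here (log2 fold change 0.19, standard error 0.058, adjusted p = 0.0281 from edgeR) and at -0.024 with total-count scaling. Tfe3 was not called without KO replicate 1, KO replicate 2, KO replicate 3 or WT replicate 2 (adjusted p = 0.0691, 0.108, 0.0702 and 0.0843 from edgeR), with upper-quartile scaling (adjusted p = 0.133) or with no filter on low counts (adjusted p = 0.087). Mitf had 96.5, 80.9 and 81.1 CPM in KO and 95.4, 82.3 and 90.9 CPM in WT, and the groups overlapped (log2 fold change -0.055, standard error 0.087, adjusted p = 0.658 from edgeR). Tfec, the fourth family member, which is not among the 49 genes and is known mainly from myeloid cells, had 19.4, 18.2 and 22.6 CPM in KO and 13.5, 12.1 and 14.0 CPM in WT (log2 fold change 0.61, standard error 0.097, adjusted p = 0.00126 from edgeR).

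Within libraries, the ratios of the other family members to Tfeb, chosen after the values were seen, were higher in KO. The log2 ratio of Tfe3 to Tfeb was 3.29, 3.16 and 2.95 in KO and 2.46, 2.31 and 2.09 in WT, a difference of 0.84. For Tfec over Tfeb the ratio was 0.34, 0.087 and 0.22 in KO and -0.78, -1.14 and -1.18 in WT, a difference of 1.25, and that of Mitf to Tfeb differed by 0.59. Of the 49 genes, Tfeb had the lowest level per kb, at 4.81 ± 0.760 CPM per kb in WT and 3.05 ± 0.363 in KO (SD, n = 3), against 14.2 ± 0.424 and 16.3 ± 0.203 for Tfe3. Mcoln1, the lysosomal calcium channel that acts upstream of TFEB and is also its target, had 60.8, 60.8 and 64.4 CPM in KO and 58.0, 65.0 and 72.5 CPM in WT, with overlap (log2 fold change -0.072, standard error 0.082, adjusted p = 0.532 from edgeR). Sqstm1, the autophagy receptor p62, had 902, 876 and 845 CPM in KO and 726, 751 and 774 CPM in WT (log2 fold change 0.22, standard error 0.066, adjusted p = 0.0261 from edgeR), and was not called without KO replicate 1, KO replicate 2 or WT replicate 2 (adjusted p = 0.0967, 0.0965 and 0.0858 from edgeR), with upper-quartile scaling (adjusted p = 0.0998) or with total-count scaling, at 0.0039. Gpnmb, a glycoprotein induced by these factors in macrophages, had a log2 fold change of -0.14 (adjusted p = 0.208 from edgeR, and 0.0081, a call, with the block).

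Promoters were read because the MiT/TFE factors bind E-boxes. RefSeq windows of 300 bases (250 before the start site and 50 from it on, GRCm38.p6) were matched for 42 of the 49 genes, of which 7 had several windows, and a gene was counted if any window held the motif on either strand. The motif CACGTG occurred in 13 of the 42 (31%), in 11.7% of the 10066 tested genes with a window and in 8.09% of all 27025 genes with one. The longer TCACGTGA, which contains it, occurred in 6 of 42 (14.3%) against 2.22% of tested genes. The variant TCACATGA, which does not overlap CACGTG, occurred in 6 of 42 (14.3%) against 1.04%. TCACGTGA was held by 0 of the 10 higher genes with a window, 1 of the 5 lower and 5 of the 27 not called. For TCACATGA these numbers were 1, 0 and 5. A still longer motif that contains TCACGTGA was in 0 of the 42 and in 0.815% of tested genes, too rare to compare. CACGTG was held by 3 of the 10 higher genes with a window, by 2 of the 5 lower genes and by 8 of the 27 not called. RefSeq windows with the motif were thus found in genes of either direction. In both lower genes, Ctsl and Atp6v1a, the motif lies inside the gene as GENCODE places it. The same holds for Lgmn among the higher genes. No lower gene with a window thus had the motif upstream of its GENCODE start in these windows. A match describes letters, not binding.

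The 250 bases before the RefSeq start site are shown for genes that differ in direction, 5′ to 3′ on the strand of the gene in GRCm38.p6, with each CACGTG in capitals. Ctsl and Atp6v1a were lower in KO, Glb1 was higher, Lamp1, with 4 motifs, was not called, and Ctsc, the gene with the largest change of the 49, has no CACGTG in its stretch.
Ctsl, chr13:64370521-64370770, reverse strand: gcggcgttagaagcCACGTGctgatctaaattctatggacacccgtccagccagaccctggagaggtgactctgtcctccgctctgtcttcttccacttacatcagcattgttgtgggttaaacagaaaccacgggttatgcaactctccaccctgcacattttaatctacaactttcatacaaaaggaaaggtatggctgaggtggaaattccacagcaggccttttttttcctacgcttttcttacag
Atp6v1a, chr16:44139260-44139509, reverse strand: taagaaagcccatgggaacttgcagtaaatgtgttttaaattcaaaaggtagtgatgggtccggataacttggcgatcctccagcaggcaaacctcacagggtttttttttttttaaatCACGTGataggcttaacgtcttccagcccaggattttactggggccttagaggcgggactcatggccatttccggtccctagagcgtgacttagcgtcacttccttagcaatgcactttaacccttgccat
Glb1, chr9:114400828-114401077, forward strand: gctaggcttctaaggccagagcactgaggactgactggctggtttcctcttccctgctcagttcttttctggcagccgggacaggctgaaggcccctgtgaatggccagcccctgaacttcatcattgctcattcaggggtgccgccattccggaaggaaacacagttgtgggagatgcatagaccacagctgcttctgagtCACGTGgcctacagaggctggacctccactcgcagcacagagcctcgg
Lamp1, chr8:13158911-13159160, forward strand: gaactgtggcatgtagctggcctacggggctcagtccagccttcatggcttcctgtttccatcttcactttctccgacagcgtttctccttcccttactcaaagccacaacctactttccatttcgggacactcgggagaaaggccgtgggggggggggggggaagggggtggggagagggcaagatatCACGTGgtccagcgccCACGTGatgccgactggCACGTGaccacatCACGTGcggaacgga
Ctsc, chr7:88277835-88278084, forward strand: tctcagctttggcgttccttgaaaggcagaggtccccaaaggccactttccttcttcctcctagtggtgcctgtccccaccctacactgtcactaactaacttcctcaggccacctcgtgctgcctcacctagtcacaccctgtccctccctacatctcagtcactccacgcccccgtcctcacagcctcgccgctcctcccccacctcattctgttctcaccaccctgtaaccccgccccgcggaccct

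The motif starts 236 bases before the RefSeq start site in Ctsl, 131 in Atp6v1a, where it stands inside TCACGTGA, and 48 in Glb1. In Lamp1 the first of the 4 starts 61 bases before it. The stretches of Ctsl and Atp6v1a lie inside the genes as GENCODE M21 places them, whose 5′ ends are at chr13:64370890 and chr16:44139705. For both genes the motif is thus not upstream of the GENCODE start. Lamp1 was not called, while Atp6v1a and Ctsl had log2 fold changes of -0.26 and -0.64 and Glb1 one of 0.26.

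In 112 further genes of lysosome biogenesis, hydrolase sorting, MiT/TFE control and autophagy, listed by hand with earlier results of these data known, 103 were tested, of which 25 were higher (24.3%, background 18.1%) and 27 lower (26.2%, background 19%). With the block, 36 were higher (background 24.4%) and 34 lower (background 26.4%). Without WT replicate 2, 13 were higher (background 14%), and with total-count scaling 9 were higher and 48 lower (background 11% and 44.8%). The cumulative plot sets both groups beside all genes tested, with median absolute log2 fold changes of 0.16 in the 49 genes, 0.20 in the further genes and 0.23 in all genes. Of 28 further hydrolases and activators tested, 9 were higher and 5 lower (11 and 8 with the block). Ctse, an endosomal aspartic protease, had 7.76 ± 1.34 CPM in KO and 4.52 ± 1.02 CPM in WT (SD, n = 3; log2 fold change 0.77, standard error 0.18, adjusted p = 0.00944 from edgeR). Hgsnat, which acetylates heparan sulfate, had 117 ± 5.95 CPM in KO and 182 ± 15.4 CPM in WT (log2 fold change -0.63, standard error 0.079, adjusted p = 3.72e-04 from edgeR). Acp2, a lysosomal acid phosphatase, was at 0.43 (adjusted p = 9.32e-04 from edgeR).

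**Figure D5:**
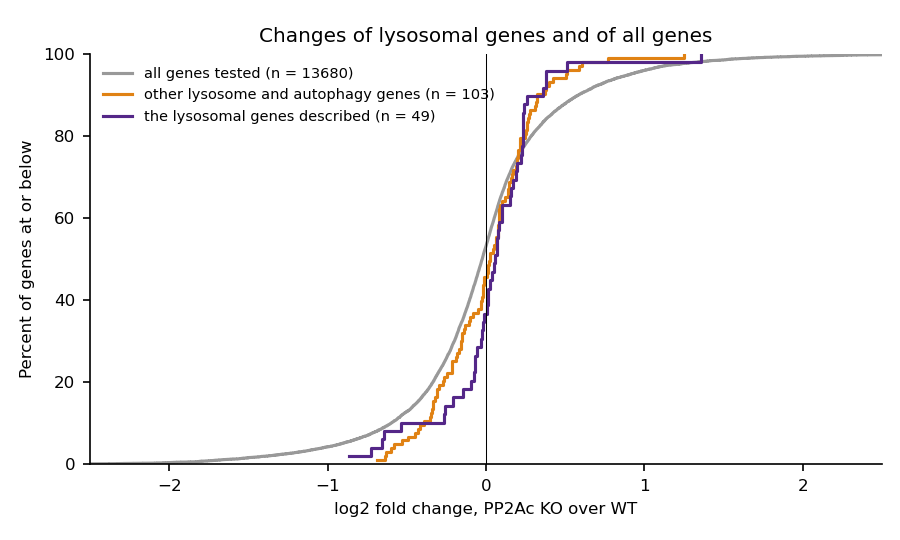
Percent of genes at or below a given log2 fold change of PP2Ac KO over WT (x axis from -2.5 to 2.5) for the 49 lysosomal genes (purple), 103 further lysosome and autophagy genes (orange) and all 13680 genes tested (grey). The purple and orange curves are steeper around 0 than the grey one, with medians of 0.055, 0.024 and -0.024.

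Of 20 further membrane proteins and transporters, 5 were higher (25%, background 18.1%) and 5 lower (25%, background 19%). With the block, 7 were higher (background 24.4%) and 5 lower (background 26.4%). The largest changes were in Ctns, the cystine exporter (-0.45), Tpcn1, an endolysosomal cation channel (-0.42), and Tmem192 (0.40). Of 8 genes that sort hydrolases, 3 were higher (37.5%, background 18.1%) and 2 lower (25%, background 19%). With the block, 3 were higher (background 24.4%) and 4 lower (background 26.4%). M6pr, the cation-dependent mannose 6-phosphate receptor, had 518 ± 19.6 CPM in KO and 433 ± 20.5 CPM in WT (log2 fold change 0.26, standard error 0.068, adjusted p = 0.0151 from edgeR). Its call was lost without KO replicate 1 or 2 or WT replicate 2 (adjusted p = 0.0521, 0.0596 and 0.0636 from edgeR) and with total-count scaling (0.044, adjusted p = 0.57). By comparison, Sort1, the sortilin receptor, and Gga2, a sorting adaptor, were at -0.35 and -0.49 (adjusted p = 0.00391 and 6.33e-04 from edgeR). Of 3 tested cathepsin inhibitors in a list of 8, Cst7 (cystatin F), which inhibits cathepsin C among others, was higher, with 4.53, 4.39 and 4.10 CPM in KO and 2.25, 1.47 and 1.72 CPM in WT (log2 fold change 1.25, standard error 0.16, adjusted p = 4.84e-04 from edgeR). Cst3 (cystatin C) was at 0.17 (adjusted p = 0.163 from edgeR, and 0.0051, a call, with the block), and at -0.047 with total-count scaling.

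Among 18 genes of MiT/TFE control at the lysosome, 1 was higher (Tfec) and 5 lower, 33.3% called in either direction, near the 37.1% of all genes tested. With the block, 4 were higher (background 24.4%) and 7 lower (background 26.4%). Rragd, a Rag GTPase that is itself a target of these factors, had 22.2, 24.6 and 24.7 CPM in KO and 38.7, 39.9 and 36.4 CPM in WT (log2 fold change -0.69, standard error 0.069, adjusted p = 1.48e-04 from edgeR). Fnip2, a folliculin partner, had 165, 136 and 161 CPM in KO and 252, 207 and 258 CPM in WT (log2 fold change -0.64, standard error 0.10, adjusted p = 0.0014 from edgeR). Flcn (folliculin), named after its value was seen, was also lower, with 47.2, 51.8 and 52.8 CPM in KO and 71.5, 77.7 and 80.6 CPM in WT (log2 fold change -0.60, standard error 0.070, adjusted p = 2.83e-04 from edgeR). In these 3 genes every KO library lay below every WT library. That held for 5 of the 18 genes of this list (background 26.8%), and in 6 every KO library lay above every WT library (background 24%). Of 18 autophagy genes, 4 were higher and 10 lower (5 and 10 with the block, background 24.4% and 26.4%). Uvrag, a subunit of a class III PI3-kinase complex, was higher at 0.59, and Wipi1, which reads phosphoinositides on forming autophagosomes, and Gabarapl1, an ATG8 protein, were lower at -0.58 and -0.53 (adjusted p = 0.00169, 6.28e-04 and 3.34e-04 from edgeR). The higher share in this list was 22.2% and the lower share 55.6%, against 18.1% and 19% of all genes tested. The genes were listed by hand with earlier results of these data known, so these shares are a description and not a test.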

How the data were processed

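Poly(A) RNA was isolated for each of the 6 BMDM samples, and directional libraries were read as paired ends. The authors deposited whole-number counts of reads per gene symbol, without normalization. The submitters' processing notes name fastp 0.20.0, kallisto 0.46.1, STAR 2.7.1a, HTSeq 0.11.2, edgeR 3.34.0 and limma 3.48.3 and the builds mm10 and GRCm38; which tool made the counts, the annotation release and the strand setting are not given in the sources used here. A gene that shares reads with another could thus be miscounted. Coordinates, exons and 50-base windows came from GENCODE M21 of GRCm38, in which all 49 symbols occur, and promoters from RefSeq.

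Differential expression was tested with edgeR 4.0.16 under R 4.3.3 (filterByExpr with minimum count 10 and total 15, TMM, glmQLFit and glmQLFTest on genotype, Benjamini-Hochberg over 13680 genes, called at adjusted p under 0.05). Standard errors are the log2 fold change divided by the square root of F. The alternatives tried comprised upper-quartile and RLE scaling, a minimum of 10 counts in every library, no filter, a block on the replicate number, DESeq2 1.42.0, limma-voom (limma 3.58.1) and each library left out, and, added after seeing the data, total-count scaling. Within a genotype, libraries differed by 9.5 to 44.9 times the counting variance (chi-square per degree of freedom), so that none was a duplicate. Both genotypes carry the replicate numbers 1, 2 and 3 in the labels, and libraries with the same number deviated together from their group means (correlations of 0.289, 0.148 and 0.337 across genes, which are not independent replicates); nothing in the sources says what a number stands for. The block is given beside a named gene or a list where it changes a call. Floors cover counting error only, since PCR copies were not told apart.

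Full values are given for Ppp2ca, the MiT/TFE genes and Mcoln1, up to 10 called genes of each direction with the largest change, the 3 genes highest per length and paralog pairs. Other members are given with their log2 fold change, and each further list with up to 3 called genes and Tfec, Tcirg1 and Cst3; 1 gene of that rule is not reported here. The 49 genes and all lists were chosen with earlier results of these data known. All ratios but 3, and Flcn, were chosen after the values were seen. Lists are described by counts and medians, with no set test. Groups of 3 have no test for a library that stands apart.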

Additional observations from a re-analysis of the deposited data

How the results depend on the processing

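Settings changed calls of the 49 genes by scale and by library. The calls were 14 higher and 7 lower with RLE scaling, 13 and 8 with no filter on low counts, 12 and 7 with at least 10 counts in every library, 15 and 7 with DESeq2 and 13 and 7 with limma-voom, against 12 and 7 as reported. The background moved too. Of 13680 genes, 2653 rose and 2425 fell with RLE scaling, 2597 and 2280 with DESeq2 and 2485 and 2571 with limma-voom, against 2470 and 2604 as reported. Without a filter 2559 rose and 2852 fell of 24686 genes. With at least 10 counts in every library these were 2369 and 2473 of 12644. With upper-quartile scaling they were 7 and 8 and the median log2 fold change was -0.0088. With total-count scaling they were 2 and 22, the median was -0.16, the further lysosome and autophagy genes gave 9 higher and 48 lower and all genes 1503 higher and 6125 lower. Leaving out each library in turn, the 49 genes gave 6 to 15 higher and 6 to 7 lower with a median of 0.041 to 0.070, the further genes 13 to 27 higher and 19 to 28 lower, and all genes 1974 to 2721 higher and 1873 to 2720 lower. Pairing by a replicate block gave 18 higher and 9 lower, and all genes 3343 higher and 3615 lower; the 8 calls it added are given beside their genes, and it changed no other call of the 49 genes. Of 686 values of single genes under 14 alternatives, 575 kept direction and side of the threshold, 36 lost a call, 32 gained one and 43 changed sign, of which 1 was in a called gene, Tfe3. The sign changed with total-count scaling in Ctsb -0.19, Ctso -0.056, Ctss -0.14, Ctsa -0.047, Tpp1 -0.11, Lamp1 -0.18, Cd68 -0.13, Gusb -0.20, Hexa -0.16, Man2b1 -0.065, Naglu -0.15, Psap -0.20, Asah1 -0.21, Ppt1 -0.016, Atp6ap1 -0.17, Atp6v0c -0.12, Atp6v1h -0.14 and Tfe3 -0.024. It changed with upper-quartile scaling in Ctsb -0.042, Lamp1 -0.028, Gusb -0.050, Hexa -0.0088, Psap -0.052, Asah1 -0.056 and Atp6ap1 -0.016, with RLE scaling in Cd63 0.0017 and Neu1 0.0078, with DESeq2 in Cd63 0.0017 and Neu1 0.0077, and with no filter in Asah1 -0.0011. Leaving out 1 library changed the sign in some fits of Ctsb -0.021 to 0.070, Cd63 -0.061 to 0.0086, Gusb -0.0077 to 0.027, Neu1 -0.045 to 0.039, Psap -0.045 to 0.089, Asah1 -0.051 to 0.045, Atp6v0b -0.098 to 0.0086 and Mcoln1 -0.15 to 0.013. Of the named genes outside the 49, Cst3 changed sign with total-count scaling (-0.047). The cause of these changes was not tested. With 3 libraries per genotype the smallest exact permutation p for a single value is 0.1, above 0.05.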
